A study of Mus musculus with 6 samples.

Results

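Circular RNAs (circRNAs) of 4 genes of the c-Jun N-terminal kinase (JNK) and MAP kinase cascade, Map4k4, Map3k4, Map2k4 and Sh3rf1, were described in mouse hippocampus. They were found as every entry of the deposited circRNA table whose host list holds the Ensembl identifier of 1 of these genes, and they number 16 of 10652 circRNAs. The 4 hosts were picked with their levels in stressed and control mice already known, so those levels are given as a description. They also entered the fits over the whole table, of which only counts are given for them and from which nothing is read. All mice were adult male C57BL/6J animals, labelled C57BL/6 in the strain field and 8 to 10 weeks old when obtained. The 3 CUS libraries come from mice kept under chronic unpredictable stress for 4 weeks, in which mild stressors (among them overnight light, restraint and swimming in cold water) came in random order. The 3 Control libraries come from mice described as healthy. No transgene or drug is named for either group. The samples are described as independent, but not as 1 mouse each, so any spread or p-value given is between libraries and may be technical.

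A MAP kinase cascade passes a signal down a chain of protein kinases, each of which phosphorylates the next. MAP4K and MAP3K enzymes receive stress and receptor signals, MAP2K enzymes relay them, and the MAP kinases JNK, p38 and ERK act on transcription factors and cytoskeletal proteins, while scaffold proteins hold the kinases of a chain together. In neurons JNK signalling is known for its part in stress responses, axon and dendrite growth and apoptosis. A circRNA is a ring made when a downstream splice donor joins an upstream acceptor of the same transcript. Its level need not follow the level of the linear mRNA or the protein, neither of which was measured here.

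Map4k4 encodes a MAP4K near the top of the chain and lies on chromosome 1 from 39900913 to 40026310, plus strand (GRCm38). Map3k4 encodes a MAP3K that can act on the MAP2Ks of the JNK and p38 branches, and lies on chromosome 17 from 12227621 to 12318796, minus strand. Map2k4 encodes a MAP2K that phosphorylates JNK and p38 and lies on chromosome 11 from 65688243 to 65788297, minus strand. Sh3rf1 encodes POSH, a RING-finger scaffold that binds active Rac and kinases of the JNK chain, and lies on chromosome 8 from 61223872 to 61396071, plus strand. These are positions of the genes. The table was used without circRNA coordinates, so the exons inside each ring are not given and no ring sequence is printed. The longest exon chain of a coding transcript has 32 exons in Map4k4, 27 in Map3k4, 11 in Map2k4 and 12 in Sh3rf1.

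Among the 4 host genes Map2k4 is the one that contains an annotated microRNA gene. Mir744 lies at chromosome 11, 65734733 to 65734832, on the same strand as Map2k4 and outside the exons of its coding transcripts. Its 2 mature products are shown from RefSeq (GRCm38.p6) because they come from the same locus as the Map2k4 rings, and capitals mark the seed, bases 2 to 8. They have different seeds, and their levels were not measured here.
mmu-miR-744-5p: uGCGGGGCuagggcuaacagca
mmu-miR-744-3p: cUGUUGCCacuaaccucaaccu

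Of the 16 circRNAs, 5 belong to Map4k4, 3 to Map3k4, 5 to Map2k4 and 3 to Sh3rf1, against a median of 2 circRNAs per host over 3772 hosts. The table classes 15 as exonic and 1, of Map4k4, as intronic, and each lists a single host. Of the 16, 8 (50.0%) were above 0 in only 1 library, against 36.9% of all circRNAs, 1 was above 0 in 2 libraries and 7 in at least 3 of the 6. Levels below are 10 to the deposited log10 value, and an entry without a value is listed at 0. In every library the lowest level above 0 is 17 steps of a library-specific unit, or 41.0 to 50.1. A level of 0 is therefore not shown to be absence, and since read numbers behind the values are unknown, no counting interval is given.

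The inverse of the library-specific unit, here called relative depth, ran from 90.8% to 100% of its highest value in Control and from 81.9% to 89.8% in CUS. What 1 unit stands for is unknown, so whether this measure follows sequencing depth was not tested. The number of circRNAs above 0 was 4329 to 4606 in the Control libraries and 3991 to 4273 in the CUS libraries. In both measures every CUS library was below every Control library, and CUS replicate 1 was lowest. Relative depth and group thus cannot be told apart, and the part of depth in levels listed at 0 was not tested. Of 17 hippocampal neuron genes listed, 10 had a circRNA, with a summed level of 17415 to 19493 in the Control libraries and 16431 to 21946 in the CUS libraries. The markers of this list without a circRNA were the interneuron genes Gad1 and Gad2, the pyramidal cell gene Wfs1, and Dsp, C1ql2, Fibcd1 and Neurod6. Lists differ in how many of their genes had a circRNA, so their sums do not give shares of cells. Lists for other cells were at lower sums: 4 of 9 astrocyte genes (1085 to 1525 in the Control libraries, 1710 to 2642 in the CUS libraries), 5 of 10 oligodendrocyte genes (1374 to 2040 and 2039 to 2989), 1 of 7 microglial genes, Mertk (208 to 1714 and 0 to 275), and 2 of 9 vascular and choroid genes (0 to 454 and 0 to 233). Of 9 genes of neighbouring tissue, 2 had a circRNA (0 to 559 in the Control libraries and 0 to 277 in the CUS libraries). Defining markers without any circRNA included Aqp4 and Gfap of astrocytes, Mog and Mag of oligodendrocytes, Csf1r and P2ry12 of microglia, and Cldn5 and Ttr of vessels and choroid. The microglial values thus rest on Mertk alone and do not stand for microglia. The astrocyte sums, from 4 of the 9 genes, did not overlap between the groups. Groups also did not overlap in 11.4% of all hosts tested, and nothing on astrocyte numbers is read from these sums. The oligodendrocyte sums overlapped narrowly, with a highest Control sum of 2040 and a lowest CUS sum of 2039. The part of cell composition in the host levels below was not tested. In bulk tissue, fewer cells of a type and less RNA per cell cannot be told apart.

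Map2k4 had the highest summed level of the 4 hosts, 377th of 3772 by mean. Its sum, with identical rings counted once, was 616, 2598 and 3123 in CUS replicates 1 to 3 and 307, 280 and 819 in Control replicates 1 to 3. CUS replicates 2 and 3 were above every Control library, while CUS replicate 1 was below Control replicate 3, so the groups overlapped. The means were 2112 ± 1322 in the CUS libraries and 469 ± 304 in the Control libraries (SD, n = 3 each), a ratio of 4.51. On the scale of log2(level + 45.5), which understates changes of low circRNAs, the difference was 1.94, with SDs of 1.24 in the CUS libraries and 0.78 in the Control libraries. It stayed positive without any 1 library, from 1.52 without CUS replicate 3 to 2.64 without CUS replicate 1.

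Most of the Map2k4 sum came from mmu_circRNA001676, which carried 62.3% of it and ranked 383rd of all 10652 circRNAs by mean. It was at 206, 1517 and 2155 in the CUS libraries and at 0, 280 and 668 in the Control libraries. The CUS replicates 2 and 3 again stood above all Control libraries, and CUS replicate 1 lay within the Control range. Its log2 difference of 2.12 was 3.08 without CUS replicate 1 and 0.98 without Control replicate 1, the library listed at 0, and it was 1.38 with 5 times the pseudocount. The next ring, mmu_circRNA001680, was at 410, 688 and 0 in the CUS libraries and at 307, 0 and 152 in the Control libraries. It did not follow the main ring from library to library: it was listed at 0 in CUS replicate 3, where mmu_circRNA001676 was highest, and was the only Map2k4 ring in Control replicate 1. Its log2 difference of 0.76 turned to -0.089 without Control replicate 2 and to -0.028 without CUS replicate 2.

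The other 3 Map2k4 rings were each above 0 in only 1 library, always a CUS library. mmu_circRNA001677 was at 393 in CUS replicate 2. mmu_circRNA001678 and mmu_circRNA001679 were both at 968 in CUS replicate 3, a difference of 0 steps. These 2 entries may share reads and count once above. Counted separately, they lift the Map2k4 sum of that library from 3123 to 4090 and the log2 difference from 1.94 to 2.06.

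Map4k4 was the second of the 4 hosts by mean level over all libraries, 570th of 3772. Its 5 rings summed to 0, 834 and 606 in the CUS libraries and to 1098, 547 and 2277 in the Control libraries. The groups overlapped, since CUS replicates 2 and 3 were both above Control replicate 2. The log2 difference was -1.97, with SDs of 2.35 in the CUS libraries and 0.99 in the Control libraries, and it was -0.62 without CUS replicate 1, the library in which all 5 rings were listed at 0. That library also had the lowest relative depth, 81.9%, and the part of depth in its zeros was not tested. The difference remained negative without each of the other libraries, down to -2.76 without CUS replicate 2.

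The main Map4k4 ring, mmu_circRNA000183, was at 84.5, 408 and 1764 in the Control libraries and at 0, 619 and 457 in the CUS libraries. Control replicate 3 was far above the rest, and CUS replicates 2 and 3 were above the other two Control libraries. Its log2 difference of -0.94 turned to 0.027 without Control replicate 3 and to 0.28 without CUS replicate 1. In the 4 libraries outside Control replicate 1 that held the ring, it made up 74.2% to 77.5% of the Map4k4 sum, against 7.69% in Control replicate 1. In Control replicate 1 the sum came mainly from the intronic mmu_circRNA000185, at 811. This intronic ring was at 298 in Control replicate 3 and was listed at 0 in Control replicate 2 and in the 3 CUS libraries. mmu_circRNA000181 was at 106, 139 and 215 in the Control libraries and at 0, 0 and 150 in the CUS libraries, with a log2 difference of -1.39. That difference was negative in each setting run but varied in size, from -1.04 without CUS replicate 1 or 2 to -2.09 without CUS replicate 3, and was -2.73 and -0.49 with 0.2 and 5 times the pseudocount. The remaining rings were each seen once, mmu_circRNA000184 at 96.6 in Control replicate 1 and mmu_circRNA000182 at 215 in CUS replicate 2.

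Map3k4 had the lowest level of the 4 hosts, 1532nd of 3772. Its 3 entries reduce to 2 patterns, because mmu_circRNA004542 and mmu_circRNA004540 differed by 4 steps in each of the 4 libraries where they were above 0, at most 5.27% of their level, and may share reads. mmu_circRNA004542 was at 278, 0 and 319 in the Control libraries and at 0, 204 and 315 in the CUS libraries. mmu_circRNA004540 was at 268, 0 and 309 in the Control libraries and at 0, 194 and 304 in the CUS libraries. Each group thus had 1 library listed at 0 and 2 at similar levels, and the log2 differences were -0.13 and -0.14, with SDs within groups of 1.57 to 1.69. Both signs changed without any 1 of Control replicate 1, Control replicate 3 or CUS replicate 1. The other ring, mmu_circRNA004539, was at 548 in Control replicate 3 and listed at 0 elsewhere.

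With that pair counted once, the Map3k4 sum was 273, 0 and 862 in the Control libraries and 0, 199 and 310 in the CUS libraries. The log2 difference of -0.58 was smaller than the SDs of 2.19 in the Control libraries and 1.58 in the CUS libraries. It rested on 1 library of each group: it was 0.39 without Control replicate 3 and 0.32 without CUS replicate 1, and it reached -1.77 without Control replicate 2.

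The scaffold gene Sh3rf1 ranked 607th of 3772 hosts. Its ring mmu_circRNA009989 was the only one of the 16 above 0 in all 6 libraries, at 311, 973 and 346 in the Control libraries and 1627, 202 and 666 in the CUS libraries. The highest and the lowest of these levels were both in CUS, so the spread inside that group covered the whole Control range. The means were 832 ± 727 in the CUS libraries and 543 ± 373 in the Control libraries (SD, n = 3 each), and the log2 difference of 0.35 turned to -0.32 without CUS replicate 1. mmu_circRNA009990 was at 459 in Control replicate 2 and mmu_circRNA009991 at 470 in CUS replicate 3, and each was listed at 0 in the other libraries. The Sh3rf1 sum was 311, 1432 and 346 in the Control libraries and 1627, 202 and 1136 in the CUS libraries, a log2 difference of 0.41 with SDs of 1.15 and 1.47. It ranged from -0.13 without CUS replicate 1 to 1.25 without CUS replicate 2.

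**Figure D1:**
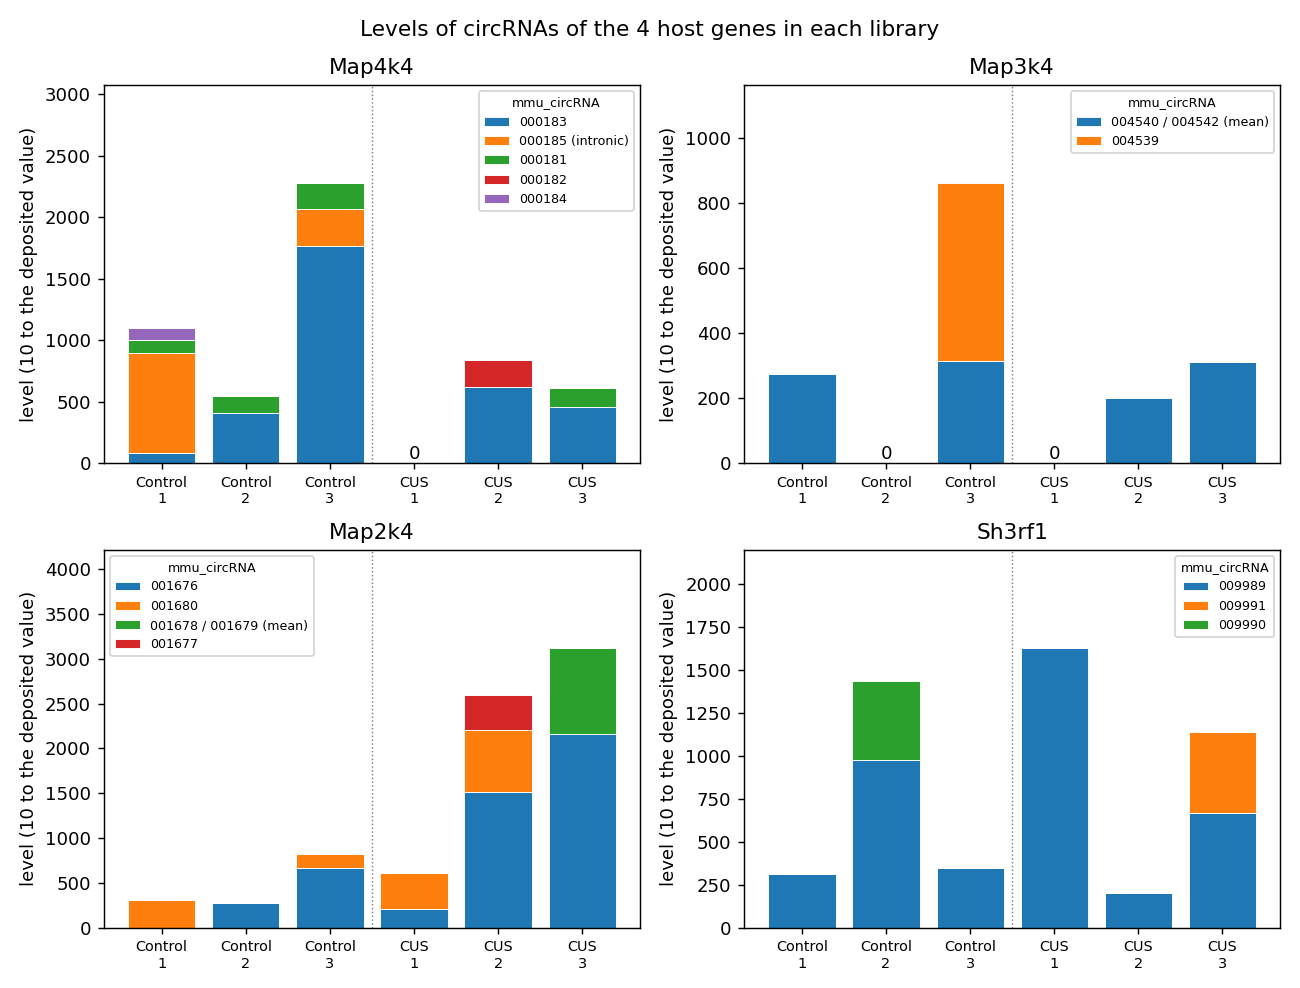
Stacked bars give the level (10 to the deposited value, linear axis from 0) of each circRNA of Map4k4, Map3k4, Map2k4 and Sh3rf1 in the 3 Control and 3 CUS libraries, with near-identical entries drawn once at their mean. Map2k4 sums of 2598 and 3123 in CUS replicates 2 and 3 stand above the other libraries, and Map4k4 and Map3k4 are at 0 in CUS replicate 1.

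The 4 hosts did not share 1 pattern over the libraries. In CUS replicate 1 Map4k4 and Map3k4 were at 0 while Sh3rf1 had its highest sum, and in CUS replicate 2 Sh3rf1 had its lowest sum while Map2k4 was high. After centring log2 values on each host's mean, the root mean square difference over the 6 libraries was 1.13 between Map4k4 and Map3k4, the closest pair, and 2.65 between Map4k4 and Sh3rf1, the most distant.

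**Figure D2:**
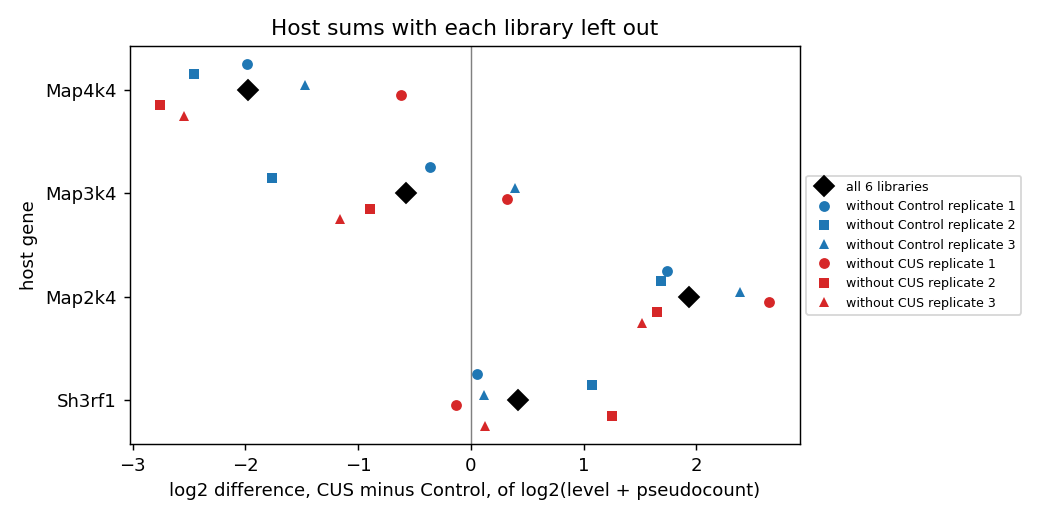
Black diamonds give the log2 difference (CUS minus Control) of each host sum over all 6 libraries, and coloured points give it with 1 named library left out. Map2k4 stays between 1.52 and 2.64 and Map4k4 below 0, while the points of Map3k4 and Sh3rf1 fall on both sides of 0.

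Of the 16 circRNAs, 7 were above 0 in at least 3 libraries and so entered limma's fit over all 3896 such circRNAs. There 0 of the 7 and 0 of 3896 (0%) passed an adjusted p under 0.05, and 0 of the 7 against 234 of 3896 (6.01%) had an unadjusted p under 0.05. None of the 7 had groups that did not overlap, against 10.9% of all circRNAs tested. In the fit over 2227 host sums, 0 of the 4 hosts and 0 hosts in all (0%) passed, with a lowest limma adjusted p of 0.765 over all hosts. At an unadjusted p under 0.05 there were 1 of the 4 and 120 of 2227 hosts (5.39%). Groups did not overlap in 0 of the 4, against 11.4% of hosts. The fit over host sums counted the identical Map2k4 entries separately, unlike the sums described above. The hosts were chosen on this contrast, so these member counts are no test of them.

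Host sums with the most similar course over the 6 libraries were looked up among 1112 or 1113 other tested hosts above the median level. Nearest to Map2k4 was Zdhhc13, a palmitoyltransferase gene, at 147, 272 and 649 in the Control libraries and 690, 1560 and 1460 in the CUS libraries, with a root mean square difference of 0.44 against a median of 1.53 over the hosts compared. Nvl (0.57) and Zfp943 (0.64) followed. Among the nearest to Map4k4 were Csgalnact1 (0.46) and Pik3r1, a phosphoinositide kinase regulatory subunit gene (0.47), each listed at 0 in CUS replicate 1 as Map4k4 was. Nearest to Map3k4 were Ehmt1, a histone methyltransferase gene (0.51), Pik3r1 (0.78) and Map1s (0.81). Among the nearest to Sh3rf1 were Zfp536 (0.36) and Kat6a, a histone acetyltransferase gene (0.48). All of these were picked for likeness among many hosts in the same 6 libraries.

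**Figure D3:**
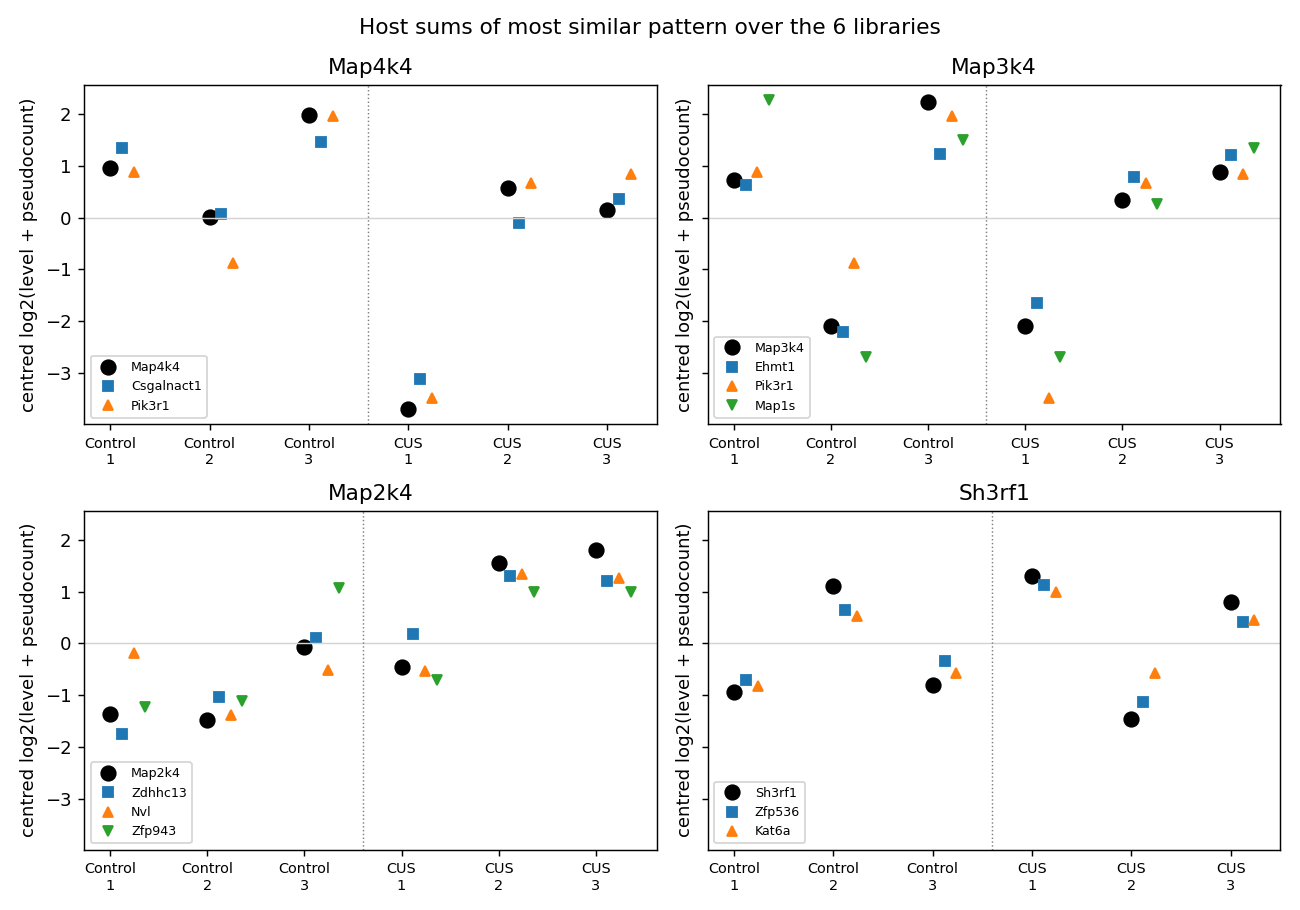
Each panel plots log2(level + pseudocount), centred on its mean over the 6 libraries, for 1 of the 4 hosts (black circles) and 2 or 3 of its nearest hosts (coloured symbols, shifted to the right for legibility). The low point of Map4k4, Csgalnact1 and Pik3r1 in CUS replicate 1 is where their sums are listed at 0.

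The rest of the pathway was then read from lists by role. Of 118 other genes listed, 50 had 123 circRNAs and 33 were tested. Of the 33 tested hosts 0 passed limma's adjusted threshold (background 0%). Fitted values were above those of Control in 14 (42.4%) and below in 19. Over all 2227 hosts 1067 (47.9%) were above and 1160 below. The median log2 difference was -0.27, against -0.054 over all 2227 hosts. The single lists below are small and none was tested as a set, so their counts of higher and lower hosts are description. An unadjusted p under 0.05 was reached by 3 of the 33 (Map3k21, Pak3 and Pak1), against 5.39% of all hosts tested. Groups did not overlap in 5 of the 33, against 11.4% of all hosts tested. Map3k21 was listed at 0 in every Control library and entered the fit only through its CUS levels. Its p and its lack of overlap are therefore no test of it. Pak1 was listed at 0 in Control replicates 1 and 3 and likewise met the filter through its CUS levels. Its p and its lack of overlap are no test of it either. Levels listed at 0 also enter the values of Pak1, Pak3 and Taok1.

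At the level of Map4k4, 2 other MAP4K hosts were tested. Tnik, a MAP4K of the same subfamily as Map4k4, was at 850, 721 and 1657 in the Control libraries and 590, 839 and 606 in the CUS libraries, with a log2 difference of -0.56, SE 0.72 and limma adjusted p of 0.919. Map4k2 was at 0, 0 and 258 in the Control libraries and 0, 290 and 533 in the CUS libraries. Of 8 other MAP3K hosts 4 had higher and 4 lower fitted values. Map3k21, a mixed-lineage kinase gene, was listed at 0 in the Control libraries and was at 268, 124 and 334 in the CUS libraries (limma adjusted p = 0.765). Taok1, a kinase gene of the TAO family, was at 739, 350 and 848 in the Control libraries and 171, 274 and 0 in the CUS libraries, groups that did not overlap, with a limma adjusted p of 0.919. Map3k3 had the highest mean of the list, 1001 ± 568 in the CUS libraries against 821 ± 615 in the Control libraries (SD, n = 3 each). Map2k1, an ERK-branch kinase gene and the only other MAP2K host tested, was at 1021, 845 and 1229 in the Control libraries and 307, 449 and 1799 in the CUS libraries, so its fitted value was lower (log2 difference -0.64, SE 0.75) with both groups overlapping.

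Downstream of Map2k4, 5 MAP kinase hosts were tested, 1 with a higher fitted value and 4 with a lower one. The higher one was Mapk8, which encodes JNK1, a direct substrate kinase of MAP2K4, at 881, 83.2 and 1144 in the Control libraries and 914, 1011 and 813 in the CUS libraries. Its log2 difference of 0.87 (SE 0.85, limma adjusted p = 0.919) came with CUS levels inside the Control range. Among the 4 lower ones were Mapk10 and Mapk14, which also encode JNK and p38 kinases. Mapk10 was at 0, 424 and 487 in the Control libraries and 0, 188 and 76.1 in the CUS libraries (log2 difference -1.04, SE 1.45). Mapk14 was at 123, 237 and 410 in the Control libraries and 224, 960 and 0 in the CUS libraries (log2 difference -0.27, SE 1.49). Mapk4, an atypical MAP kinase gene, was at 1992 ± 750 in the Control libraries and 1484 ± 758 in the CUS libraries (SD, n = 3 each). That difference was smaller than the spread between libraries.

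Among 4 scaffold hosts 3 had higher fitted values and 1, Ksr2, a lower one. Sh3rf3, a paralog of Sh3rf1, had the highest mean of the list, at 2240, 2019 and 1258 in the Control libraries and 1719, 2759 and 2066 in the CUS libraries, with a log2 difference of 0.25 (SE 0.48). Its levels overlapped between groups as those of Sh3rf1 did. Ksr2, an ERK-branch scaffold gene, was at 1939, 961 and 567 in the Control libraries and 793, 1399 and 220 in the CUS libraries. Both tested MAPK-activated kinase hosts had higher fitted values: Rps6ka5, which encodes the histone kinase MSK1, was at 1996 ± 216 in the CUS libraries against 1820 ± 687 in the Control libraries (SD, n = 3 each), and Rps6ka3 was at 557, 191 and 487 against 688, 0 and 138. Of the phosphatase hosts, Ptprr, a MAP kinase phosphatase gene, was at 2459, 218 and 1066 in the CUS libraries and 1301, 1127 and 420 in the Control libraries, a log2 difference of -0.0019 although its mean level was higher in CUS. Ppm1a was at 239, 0 and 185 in the CUS libraries and 0, 0 and 769 in the Control libraries.

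Of 6 hosts that encode JNK or MAP kinase substrates, the fitted value under stress was higher in 1 and lower in 5. Among all hosts tested 47.9% were higher, and this list was not tested as a set. Jund, which encodes an AP-1 transcription factor, was at 985, 1125 and 1253 in the Control libraries and 280, 446 and 269 in the CUS libraries. The groups did not overlap, and the log2 difference of -1.65 (SE 0.84) had a limma adjusted p of 0.919. This Jund sum is 1 circRNA, mmu_circRNA010042, and the annotated Jund gene has 1 exon. Elk4, an ETS transcription factor gene, was at 2241 ± 757 in the Control libraries and 1190 ± 481 in the CUS libraries (SD, n = 3 each), and the log2 difference was -0.92 (SE 0.54). Its groups overlapped by CUS replicates 1 and 2, which were above Control replicate 1.

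The last list held small GTPase genes such as Rac1 and Cdc42 and the PAK kinases that act upstream of the cascade. Pak3 was at 1777, 1049 and 1157 in the Control libraries and 1029, 196 and 0 in the CUS libraries, and Pak1 was at 0, 295 and 0 in the Control libraries and 1235, 613 and 465 in the CUS libraries. The groups did not overlap for either kinase, with opposite directions. For Pak3 the margin was narrow, 1049 in Control replicate 2 against 1029 in CUS replicate 1. Pak1 met the filter through its CUS levels, so its lack of overlap and its p are no test of it. Their log2 differences of -2.56 (SE 1.01) and 3.09 (SE 1.46) had limma adjusted p-values of 0.765 and 0.795.

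**Figure D4:**
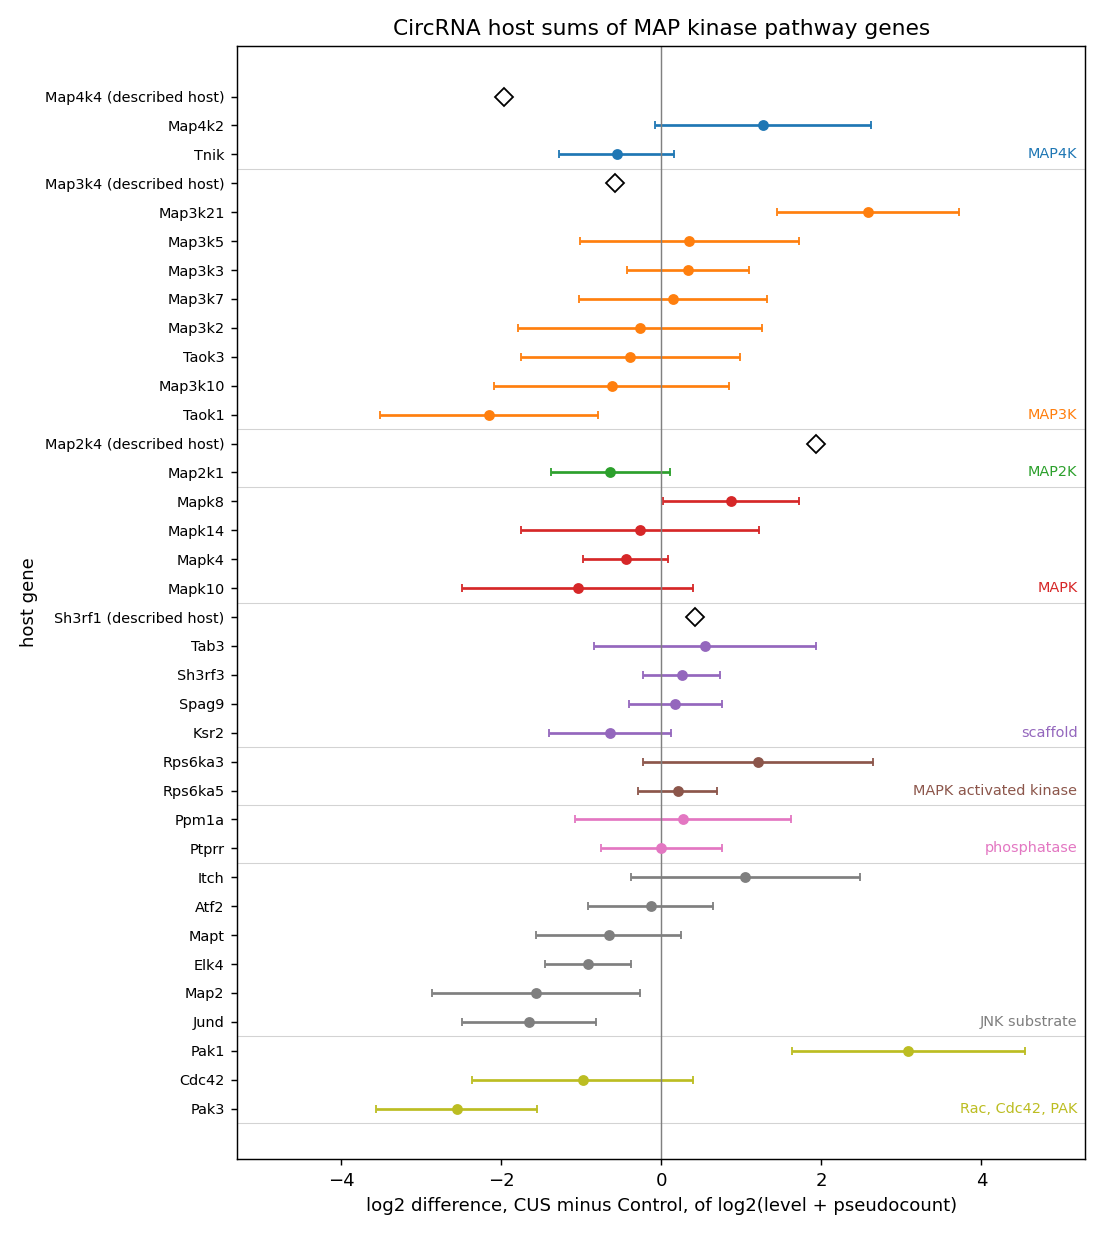
Points give the log2 difference (CUS minus Control) of 32 of the 33 tested pathway host sums and bars 1 SE from limma, grouped and coloured by role, and open diamonds give the 4 described hosts, drawn without an error because their differences are given as a description. Map2k4 at 1.94 and Map4k4 at -1.97 lie on opposite sides of 0, as do Pak1 at 3.09 and Pak3 at -2.56.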

How the data were processed

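Per the labels' protocols, hippocampal RNA went through poly(A) purification, and paired-end sequencing followed on strand-marked libraries carrying molecular identifiers. Rings lack a poly(A) tail, so poly(A) purification can reduce and skew their recovery. The authors deposited 1 table of log10 values per library, with 0 for a circRNA without a value. The submitters' processing notes name StringTie, edgeR, DESeq and the mm9 build with no role for any, and the circRNA caller and the linear unit are not given in the sources used here. All values under 300 steps lay within 0.05 of a whole multiple of a library-specific step (100% in each library).

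Host symbols and gene positions came from GENCODE vM21 (GRCm38), where 4467 of 4483 identifiers matched. Of 786 circRNAs with several hosts, 583 were assigned where a single host was protein-coding, and the other 203 entered no sum. Near-identical circRNAs of 1 host (together above 0 in at least 2 libraries, and within 25% or 20 steps in every library) counted once at their mean, 150 groups in all. The identical Map2k4 entries share only 1 library. They were counted once in the values described and separately in the fit over all hosts. limma 3.58.1 (R 4.3.3, eBayes with a trend) compared log2(level + 45.5), the pseudocount being the median of the libraries' lowest levels, for features above 0 in at least 3 of 6 libraries, with Benjamini-Hochberg adjustment and a threshold of 0.05. The fit was run on simulated normal values, which did not model levels listed at 0. That run therefore does not show how the fit behaves for features with such levels. Python 3.11.15, numpy 2.4.6, pandas 2.3.3 and matplotlib 3.10.9 made tables and figures.

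The members and gene lists were chosen with earlier results of these data known. Named were all members, in each role list the 2 tested hosts of smallest unadjusted p and the host of highest mean, and the 3 hosts nearest to each member host. Mapk10 and Mapk14 were named in addition, with their values known. A few genes that this rule or the lists name are not reported here. Alternatives covered pseudocount, filter, trend, scaling, replicate block, counting of similar or multi-host circRNAs, and each library left out.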

Additional observations from a re-analysis of the deposited data

How the results depend on the processing

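No circRNA, host or pathway host passed the adjusted threshold under any alternative run (0 in each). The Map2k4 sum kept a positive and the Map4k4 sum a negative log2 difference in all of them, from 1.52 to 2.64 and from -2.76 to -0.62 with each library left out. Map3k4 ranged from -1.77 to 0.39, positive without Control replicate 3 (0.39) or CUS replicate 1 (0.32), and Sh3rf1 from -0.13 (without CUS replicate 1) to 1.25. With 0.2 and 5 times the pseudocount Map4k4 was at -2.74 and -1.23. With each library left out, single rings ranged from -1.87 to 0.28 (mmu_circRNA000183), -1.10 to 0.78 (mmu_circRNA004542), -1.09 to 0.75 (mmu_circRNA004540), -2.09 to -1.04 (mmu_circRNA000181), -0.089 to 1.98 (mmu_circRNA001680) and -0.32 to 1.06 (mmu_circRNA009989). Counts at an unadjusted p under 0.05 fell from 234 circRNAs to between 94 and 135, from 120 hosts to between 77 and 99, and from 3 pathway hosts to 1 or 2, where fewer samples and features were tested. Pathway hosts then numbered 9 to 13 higher and 17 to 24 lower. When only features above 0 in all 6 libraries were fitted, fewer were tested, and 32 circRNAs, 52 hosts and 1 pathway host had that p. That pathway host is not among the 3 of the main fit (Map3k21, Pak3 and Pak1), which were all listed at 0 in some library. Under this filter 6 pathway hosts were higher and 11 lower. Without a filter 20 pathway hosts were higher and 30 lower.

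The labels do not say that replicate numbers pair libraries, and deviations of same-numbered libraries correlated at -0.011, -0.025 and -0.020. With the replicate number as a block, 0 circRNAs and 0 hosts passed and 215 circRNAs and 121 hosts had an unadjusted p under 0.05. The block left the differences of the 4 hosts at 1.94, -1.97, -0.58 and 0.41 for Map2k4, Map4k4, Map3k4 and Sh3rf1. Counting identical entries once in the host fit was added after seeing the data and changed no count by over 1.5 times. Depth behind single values is unknown, so rings listed at 0 cannot be told from rings below the lowest level.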

Other observations

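The circRNA assigned to Jund comes from a gene with 1 annotated exon, so it has no annotated splice donor and acceptor inside that gene. It was 1 of 127 circRNAs assigned to 74 hosts (1.96% of 3772) in which every GENCODE transcript has 1 exon, and 36 of these circRNAs belong to 17 protein-coding hosts. Jund was the only pathway host of this kind. The sources used here do not say how such entries were called.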
